A study of Mus musculus with 12 samples.

Results

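Diabetic hearts treated with pargyline, an inhibitor of monoamine oxidase (MAO), were compared with untreated diabetic hearts on miRNA arrays, with 3 arrays in each group (6 of the 12 arrays of the series). Both groups were male C57BL6/J mice, 5 months old, made diabetic with daily streptozotocin (50 mg/kg, 5 days), and a blood glucose of 17 mM or more counted as diabetic. The diabetic group (D) received vehicle and the treated group (D + P) received daily pargyline (50 mg/kg), both for 12 weeks. Each array held total RNA from the heart muscle of 1 mouse, and the number in the array name stands for that mouse. The control arrays without streptozotocin (C and C + P, 3 each) were used only where they are named. Of 1881 miRNAs on the array, 138 were detected on all 6 arrays and are described by their signal, 101 were detected on some of the 6 and are described by their detection, and 1642 were detected on none.

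MAO is an enzyme of the outer mitochondrial membrane that breaks down amines such as noradrenaline and serotonin and releases hydrogen peroxide, and pargyline blocks it irreversibly. Streptozotocin destroys the insulin-producing beta cells of the pancreas and serves as a model of type 1 diabetes, without the autoimmune attack of the human disease. A miRNA is a short RNA that guides the silencing complex to mRNAs through its seed, the bases near its 5′ end, and members of a family share that seed and therefore many predicted targets. In the heart, miR-1 and miR-133 are muscle miRNAs, miR-208a and miR-499 lie inside myosin heavy chain genes, and the let-7 and miR-15 families restrain proliferation and growth signalling.

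The members of the let-7 family are shown because all 8 tested members carried a lower mean signal in D + P. Mature sequences are those of RefSeq for build GRCm38.p6, 5′ to 3′, with the seed (bases 2 to 8) in capitals.
let-7e-5p: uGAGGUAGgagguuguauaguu
let-7d-5p: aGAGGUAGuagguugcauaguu
let-7f-5p: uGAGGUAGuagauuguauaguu
let-7a-5p: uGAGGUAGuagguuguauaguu
let-7i-5p: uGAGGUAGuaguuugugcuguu
Members of the family of miR-15, miR-16 and miR-195 carry another shared seed and are shown for the same reason, as all 6 tested members had a lower mean.
miR-15b-5p: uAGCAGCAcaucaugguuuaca
miR-322-5p: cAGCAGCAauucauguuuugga
miR-195a-5p: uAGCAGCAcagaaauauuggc
miR-16-5p: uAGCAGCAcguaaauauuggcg
miR-497a-5p: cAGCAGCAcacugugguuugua
Further miRNAs at the lower end of the comparison carry other seeds.
miR-223-3p: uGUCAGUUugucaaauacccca
miR-365-3p: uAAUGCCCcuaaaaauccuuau
miR-20a-5p: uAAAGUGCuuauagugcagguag
miR-125a-5p: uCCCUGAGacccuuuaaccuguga
miR-199a-3p: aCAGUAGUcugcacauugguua
At the upper end stood mostly miRNAs with high numbers in their names. MiR-494-3p is shown with them, while miR-466i-5p had no matched sequence.
miR-7005-5p: cCUGGGGAugggaggaccagca
miR-5622-3p: cUUAGCUGgguagugguggugc
miR-3620-5p: cUGUGGGCugggcugggaagca
miR-7118-5p: uGGGGAAGgcgggagagggaac
miR-7686-5p: cCUUCCACuggaccuggggcugggc
miR-494-3p: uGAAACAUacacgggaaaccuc
A group shares the stretch GAGAUGGCU, found in 4 mature miRNAs. It is shown because the stretch was seen in several miRNAs that were higher in D + P. Of the 4, 1 gained detection in D + P.
miR-5128: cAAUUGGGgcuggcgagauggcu
miR-3473a: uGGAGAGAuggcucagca
miR-3473b: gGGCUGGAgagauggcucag
miR-3473e: gGGCUGGAgagauggcucgua
Neighbours within a single primary transcript are shown because their signals stood on opposite sides of D.
miR-27a-3p: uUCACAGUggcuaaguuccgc
miR-24-2-5p: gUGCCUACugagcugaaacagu

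The 3 D arrays had 165 to 203 detected miRNAs and a summed signal of 48104 to 61254, and the 3 D + P arrays had 187 to 218 and 39661 to 58631. Heart identity was checked because the extraction text in the sample records names another cell type. Of 6 heart muscle miRNAs, 5 were detected on all 6 arrays and miR-208b-3p on none, and 0 of 9 miRNAs of other organs (among them miR-122-5p of liver and miR-124-3p of brain) were detected on any of the 6. All D arrays lay on slide 1 with C, and all D + P arrays lay on slide 2 with C + P, so that pargyline and slide cannot be told apart. The mean log2 signal of 10 control features, which are not mouse miRNAs, was 11.07 to 11.21 on the D arrays, 10.29 on D + P 1, 10.86 on D + P 2 and 11.10 on D + P 3.

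No miRNA passed the threshold when the 2 groups were compared. By limma on the 6 arrays, after log2 transformation and cyclic loess, 0 of 138 miRNAs (0%) had an adjusted p under 0.05, and the lowest adjusted p was 0.086. At an unadjusted p under 0.05 there were 54 (39.1%), of which 28 (20.3%) were higher in D + P and 26 (18.8%) lower. All 3 D + P arrays lay outside the range of the 3 D arrays for 77 miRNAs (55.8%), with 35 higher (25.4%) and 42 lower (30.4%). Scaling shaped this split: without normalization 36 were higher and 2 lower, and with the authors' normalized values 12 were higher and 48 lower. Scaling to the 75th percentile moved the median change of the 138 miRNAs from -0.10 to 0.11 on the log2 scale.
The count of calls depended on 1 array. Without D + P 3, 69 of 138 miRNAs passed by limma, 37 higher and 32 lower, while 0 passed without any other of the 6 arrays, with 21 to 41 at an unadjusted p under 0.05. In a limma fit over all 12 arrays, 69 of 128 miRNAs passed (53.9%), 34 higher (26.6%) and 35 lower (27.3%). That fit takes the spread from all 4 groups. The median SD over 3 arrays was there 0.121 in C, 0.118 in C + P, 0.176 in D and 0.352 in D + P. Of the 69 calls of each fit, 58 were shared. In the 12-array fit the pargyline difference itself differed between diabetic and non-diabetic hearts for 90 of 128 miRNAs (70.3%). The C + P arrays were brighter than the C arrays (control features at 10.29 to 10.56 in C and 11.03 to 11.48 in C + P), unlike the D + P arrays against D, and the part of brightness in that count was not tested.

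The D + P arrays stood at clearly unequal distances from the D arrays. D + P 1 differed from the mean of D by a median of 0.89 on the log2 scale over the 138 miRNAs, D + P 2 by 0.446 and D + P 3 by 0.213. A single D array differed from the mean of the other D arrays by a median of 0.15 (D 1), 0.168 (D 2) and 0.231 (D 3). The value of D + P 3 was above those of D 1 and D 2 and below that of D 3. The D arrays were set against a mean of fewer arrays, so these distances are not strictly alike. D + P 1 was the farthest of the 3 from D for 126 of 138 miRNAs, and D + P 3 was the nearest for 110. Differences of more than 1 on the log2 scale were found for 59 miRNAs on D + P 1 (35 higher, 24 lower), for 9 on D + P 2 and for 0 on D + P 3. On D + P 1, 65 miRNAs lay above the D range, 70 below it and 3 inside it. D + P 2 had 54 above, 62 below and 22 inside, and D + P 3 had 43 above, 50 below and 45 inside. The SD over 3 arrays was larger in D + P than in D for 123 of 138 miRNAs, with medians of 0.374 and 0.171.
The mean signal of the control features followed the same order, with D + P 1 the dimmest and D + P 3 within the range of the D arrays. Single features did not all follow it, as dmr_3, dmr_6 and miRNABrightCorner30 were brighter on D + P 1 than on each D array. With the mean of all control features as a covariate, an alternative chosen after the data were seen, limma called 0 of 138 miRNAs. It gave 23 at an unadjusted p under 0.05 and a lowest adjusted p of 0.23.

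**Figure D1:**
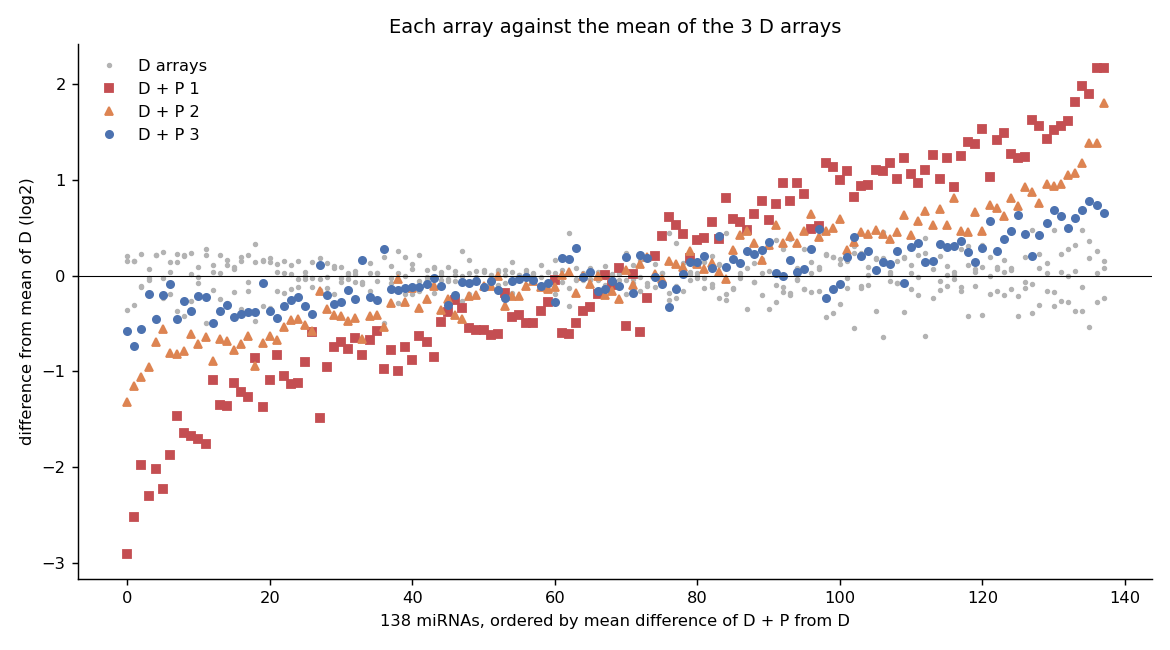
Difference of each array from the mean of the 3 D arrays (log2, vertical axis) for 138 miRNAs ordered by the mean difference of D + P from D (horizontal axis). Grey points are D arrays, red squares D + P 1, orange triangles D + P 2 and blue circles D + P 3, and the red squares reach farthest in both directions while the blue circles stay within 1 of 0.

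Among miRNAs with non-overlapping arrays, the largest lower mean belonged to let-7e-5p. Its log2 signals were 5.00, 5.05 and 4.49 on D 1, D 2 and D 3, and 1.94, 3.53 and 4.27 on D + P 1, D + P 2 and D + P 3. All D + P arrays were below all D arrays, and D + P 1 stood far below the rest. The mean was 3.04-fold lower in D + P (log2 difference -1.60, standard error 0.542, limma adjusted p = 0.110, n = 3 and 3).
let-7e lies at chr17:17830366-17830387 (+ strand, GRCm38.p6), within the span of the protein-coding gene Spaca6. It forms a cluster with miR-99b (chr17:17830194-17830215) and miR-125a (chr17:17830817-17830840), which are made from the same stretch of DNA. MiR-125a-5p, known from blood cell development, measured 4.03, 4.10 and 4.21 in D and 2.41, 3.40 and 3.90 in D + P, a difference of -0.88 (standard error 0.356, limma adjusted p = 0.115). MiR-99b-5p, of a family that targets the growth kinase mTOR, measured 3.31, 3.22 and 3.36 in D and 3.11, 2.98 and 3.07 in D + P. Its difference was -0.24 (standard error 0.158, limma adjusted p = 0.242), and it was positive with percentile scaling and in the authors' values. Thus the 3 neighbours differed in size, and miR-99b-5p was about equally far below D on each D + P array, whereas its neighbours were not.

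The let-7 family was first known from developmental timing, and it represses RAS and components of insulin and IGF signalling. Let-7f-5p had log2 signals of 9.24, 9.23 and 8.61 in D and 7.39, 8.24 and 8.76 in D + P. D + P 3 lay above D 3, so the groups overlapped, and the difference was -0.90 (standard error 0.363, limma adjusted p = 0.115). Let-7d-5p measured 8.13, 8.04 and 7.52 in D and 6.43, 7.08 and 7.44 in D + P, without overlap (difference -0.91, standard error 0.298, limma adjusted p = 0.110). At the other end let-7i-5p was 7.37, 7.55 and 7.40 in D and 7.46, 7.34 and 7.26 in D + P, a difference of -0.09 with overlapping groups.
All 8 tested members had a lower mean, and 6 of them did not overlap, beside 42 of 138 (30.4%) over all miRNAs. Their median difference was -0.78, against -0.10 over all miRNAs tested. Each of the 8 also had a lower mean with the other normalizations and without D + P 1, as did the 7 members tested in the 12-array fit, which left out let-7e-5p. By array, the median was -1.28 on D + P 1, -0.70 on D + P 2 and -0.31 on D + P 3. Over the group it was -0.46 without D + P 1 and -0.30 with the control features as a covariate. Members of the family differ by few bases, and signal shared between their probes cannot be separated here. A ninth member, miR-98-5p, with the same seed, was detected on all D arrays and not on D + P 1.

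The family of miR-15, miR-16 and miR-195, which represses cyclins and the survival factor BCL2, also had lower means. MiR-15b-5p measured 5.47, 5.47 and 5.02 in D and 2.80, 4.17 and 4.58 in D + P, which was 2.77-fold lower without overlap (difference -1.47, standard error 0.437, limma adjusted p = 0.0879). It lies at chr3:69009775-69009796 (+ strand), within Smc4, next to a copy of miR-16 (chr3:69009918-69009939). MiR-16-5p, which is also made from a copy on chromosome 14, measured 7.22, 7.11 and 6.92 in D and 6.41, 6.66 and 6.86 in D + P (difference -0.44, standard error 0.190, limma adjusted p = 0.128). Both miRNAs were thus lower on each D + P array, and miR-16-5p by less.
MiR-322-5p, the mouse counterpart of human miR-424, measured 5.69, 5.90 and 5.40 in D and 3.99, 5.05 and 5.29 in D + P (difference -0.89, standard error 0.346, limma adjusted p = 0.115). MiR-195a-5p, which is known for arresting the cell cycle of heart muscle cells after birth, measured 6.09, 6.37 and 6.00 in D and 4.88, 5.52 and 5.77 in D + P, a difference of -0.76. Its close neighbour miR-497a-5p on chromosome 11, with the same seed, measured 5.72, 5.93 and 5.81 in D and 5.83, 5.62 and 5.68 in D + P. That pair shares a transcript and differed in size, with miR-195a-5p not overlapping and miR-497a-5p overlapping. In the family, 6 of 6 tested members had a lower mean and 5 did not overlap, beside 30.4% of all miRNAs. The median was -0.68, and -0.37 without D + P 1. With percentile scaling miR-497a-5p was higher and the other 5 lower.

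Smaller families at the lower end had members with a common direction. MiR-103-3p and miR-107-3p, which lie in pantothenate kinase genes and dampen insulin sensitivity, were 1.40-fold and 1.62-fold lower, both without overlap, and their median of -0.59 became -0.37 without D + P 1. In the miR-17~92 cluster and its paralogs, known from proliferation, 6 of 6 tested members were lower and 4 did not overlap, beside 30.4% of all miRNAs. The median was -0.35, and -0.19 without D + P 1. With percentile scaling miR-93-5p was higher, and with the control features as a covariate miR-93-5p and miR-19b-3p were. MiR-20a-5p of this cluster measured 4.70, 4.69 and 4.05 in D and 2.46, 3.78 and 4.03 in D + P. Its difference of -1.06 (standard error 0.417, limma adjusted p = 0.115) came with D + P 3 only just below D 3. In the family of miR-10, miR-99, miR-100 and miR-125, 5 of 5 tested members were lower and 4 did not overlap, beside 30.4% of all miRNAs. The median was -0.28, and -0.13 without D + P 1. With percentile scaling and in the authors' values miR-99b-5p was higher. For miR-101 the direction turned with percentile scaling, with the covariate and without D + P 1, where both tested members were higher.

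Immune cell and fibroblast miRNAs had lower means as well. MiR-223-3p, a miRNA of neutrophils and monocytes encoded at chrX:96242884-96242905 (+ strand), measured 4.10, 4.44 and 4.11 in D and 2.24, 3.16 and 3.66 in D + P. All D + P arrays were below all D arrays (difference -1.19, standard error 0.349, limma adjusted p = 0.086). MiR-142a-3p, found in all white blood cells, measured 3.89, 4.37 and 4.10 in D and 1.89, 3.57 and 3.92 in D + P and overlapped. MiR-342-3p measured 3.77, 3.98 and 4.06 in D and 3.11, 3.27 and 3.49 in D + P, a difference of -0.65 without overlap (standard error 0.183, limma adjusted p = 0.086).
Of 8 immune cell miRNAs, 5 were tested and all 5 were lower, with a median of -0.73, although miR-150-5p was higher with percentile scaling and with the control features as a covariate. Only 2 of the 5 did not overlap, which is near the 30.4% over all miRNAs. Their summed unnormalized signal lay between 59.5 and 82.0 on the D arrays and between 21.6 and 82.0 on the D + P arrays, and the defining miR-155-5p was detected on 2 arrays of each group. In whole tissue, fewer cells of a type and less RNA per cell cannot be told apart. Of 5 fibroblast miRNAs, 4 were tested and had a lower mean, 2 without overlap beside 30.4% of all miRNAs. The median was -0.38, and -0.19 without D + P 1. MiR-151-5p, outside these lists, measured 5.54, 5.61 and 5.35 in D and 4.41, 4.61 and 5.00 in D + P, without overlap (difference -0.82, standard error 0.206, limma adjusted p = 0.086). MiR-199a-3p, a mesenchymal miRNA within Dnm3os, measured 5.91, 6.09 and 5.63 in D and 4.52, 5.21 and 5.50 in D + P, a difference of -0.80. Among fibroblast miRNAs, miR-199a-5p was higher with percentile scaling, with the covariate and without D + P 1. The 3 tested endothelial and 2 tested smooth muscle miRNAs had medians of -0.22 and 0.21, and both medians turned sign under another scaling.

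Heart muscle miRNAs differed from D in both directions. MiR-1a-3p, encoded by muscle-specific genes, had log2 signals of 11.75, 11.76 and 11.28 in D and 10.22, 10.90 and 11.52 in D + P, which overlapped (difference -0.72, standard error 0.334, limma adjusted p = 0.144). MiR-133a-3p, which targets the IGF1 receptor, was nearly constant in D, at 11.16, 11.15 and 11.13, and measured 10.53, 11.04 and 11.09 in D + P. It did not overlap, and the difference was -0.26 (standard error 0.201, limma adjusted p = 0.307), of which D + P 1 carried the larger share. MiR-499-5p, within the myosin gene Myh7b, measured 7.19, 7.21 and 7.14 in D and 6.42, 6.71 and 7.03 in D + P, a difference of -0.46 without overlap. MiR-208a-3p, within Myh6, was the one with a higher mean, at 5.11, 5.34 and 5.48 in D and 6.09, 5.47 and 5.58 in D + P, and it overlapped. The 4 lower and 1 higher members had a median of -0.26, and of -0.08 without D + P 1. With quantile normalization 2 of the 5 were higher, and with the control features as a covariate 3 were, with a median of 0.00052.

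**Figure D2:**
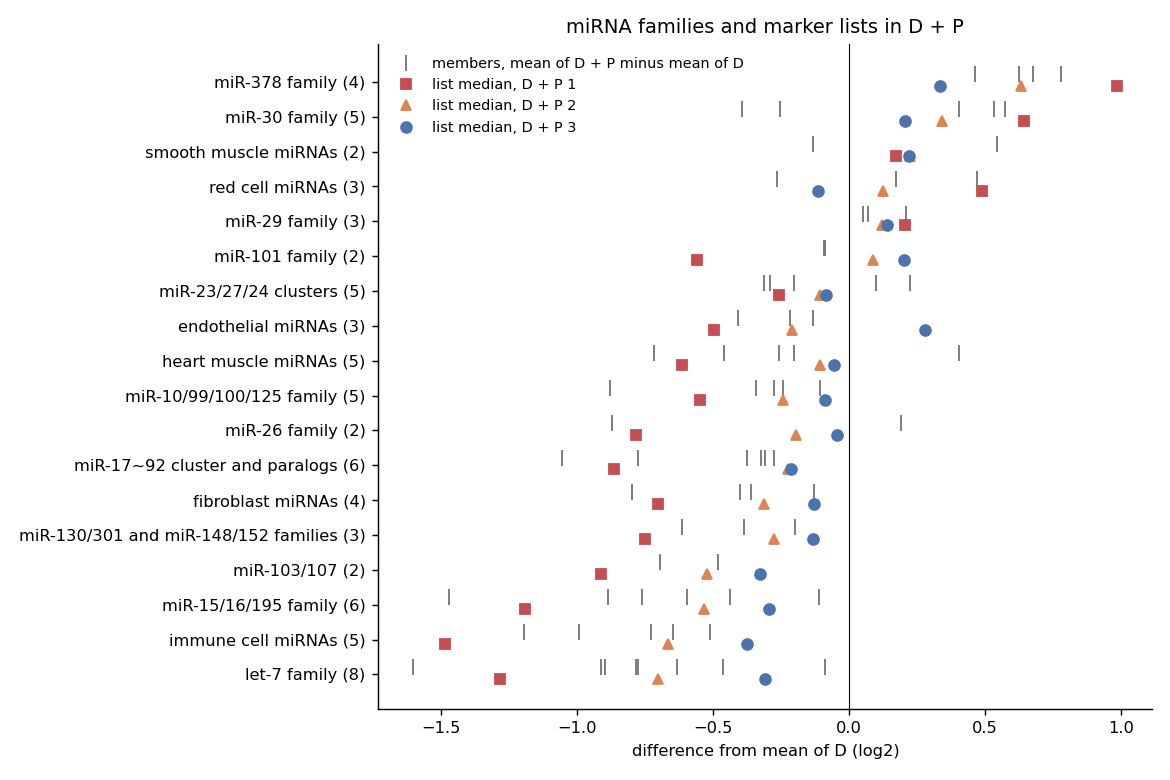
Difference of D + P from the mean of D (log2, horizontal axis) for each family or marker list with at least 2 tested members, whose number stands in parentheses. Grey ticks are members, and the symbols are list medians on D + P 1 (red squares), D + P 2 (orange triangles) and D + P 3 (blue circles); on D + P 1 the immune cell, let-7 and miR-15 lists lie farthest to the left and the miR-378 family farthest to the right.

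A further list held the miRNAs selected for qRT-PCR in the same hearts, a choice that is not independent of these arrays. Of its 7 members, 5 (let-7f-5p, miR-27a-3p, miR-152-3p, miR-133a-3p, miR-185-5p) were detected on all 6 arrays and had a lower mean in D + P, with a median of -0.29, and of -0.17 without D + P 1. The 2 others, miR-193b-3p and miR-193a-3p, lacked detection on D + P 1. MiR-27a-3p, of a cluster known from lipid metabolism and muscle growth, measured 7.52, 7.56 and 7.46 in D and 7.26, 7.10 and 7.31 in D + P. The groups did not overlap, and the 3 D + P arrays lay within 0.211 of each other (difference -0.29, standard error 0.161, limma adjusted p = 0.188). Here D + P 2, not D + P 1, was farthest from D. MiR-185-5p measured 5.34, 5.24 and 5.01 in D and 4.76, 4.99 and 5.15 in D + P, and miR-152-3p, which targets DNA methyltransferase 1, measured 4.47, 4.68 and 4.29 in D and 3.73, 4.21 and 4.35 in D + P. Both overlapped, with differences of -0.23 and -0.39 and limma adjusted p-values of 0.308 and 0.197.
MiR-27a-3p was 1 of 11 miRNAs, selected after the values were seen, whose groups did not overlap while the 3 D + P arrays agreed within 0.3 on the log2 scale. Of these, 7 were lower and 4 higher. MiR-345-5p was the lowest of them, at 4.71, 4.97 and 4.80 in D and 4.24, 4.25 and 4.43 in D + P (difference -0.52, standard error 0.168, limma adjusted p = 0.110). MiR-24-2-5p was the highest, at 3.08, 3.31 and 3.34 in D and 3.76, 3.65 and 3.73 in D + P (difference 0.47, standard error 0.165, limma adjusted p = 0.110). MiR-26a-5p, an abundant heart miRNA, measured 8.60, 8.51 and 8.57 in D and 8.75, 8.81 and 8.70 in D + P. The agreement of the D + P arrays is how these miRNAs were chosen, and for some of them, such as miR-130a-3p and miR-29c-3p, D + P 1 was still the farthest from D.

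miRNAs with a higher mean in D + P were led by miR-7005-5p, which lies at chr2:180179797-180179818 (- strand) within Lama5. It measured 1.94, 2.25 and 2.33 in D and 4.34, 3.97 and 2.83 in D + P. All D + P arrays were above all D arrays, with D + P 3 nearest to them, and the mean was 2.91-fold higher (difference 1.54, standard error 0.376, limma adjusted p = 0.086). MiR-5622-3p, within Tpx2, measured 3.74, 3.96 and 3.43 in D and 5.88, 5.10 and 4.45 in D + P (difference 1.43, standard error 0.356, limma adjusted p = 0.086). MiR-7042-5p measured 4.67, 4.49 and 3.77 in D and 6.20, 5.70 and 5.09 in D + P, a difference of 1.36. These 3 were the farthest above the D range on each D + P array. On D + P 1 they exceeded the highest D array by 1.54 to 2.01, on D + P 2 by 1.03 to 1.64 and on D + P 3 by 0.424 to 0.499.
MiR-494-3p belongs to the imprinted Dlk1-Dio3 domain, at chr12:109715367-109715388 (+ strand), and is known from ischaemic heart muscle. It measured 7.81, 7.53 and 7.25 in D and 9.14, 8.58 and 8.02 in D + P, which was 2.07-fold higher without overlap (difference 1.05, standard error 0.304, limma adjusted p = 0.086). MiR-3620-5p measured 2.62, 2.37 and 3.21 in D and 4.71, 3.91 and 3.42 in D + P, with D + P 3 just above D 3. MiR-7118-5p measured 4.09, 3.82 and 3.40 in D and 5.58, 4.84 and 4.37 in D + P. The remaining 6 of the 10 largest (these, miR-5128, miR-466i-5p, miR-3473a and miR-7686-5p) were 1.89-fold to 2.43-fold higher, none overlapped, and D + P 1 was the highest array for each. With percentile scaling, quantile normalization, no normalization or the authors' values, all 10 kept a higher mean.

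**Figure D3:**
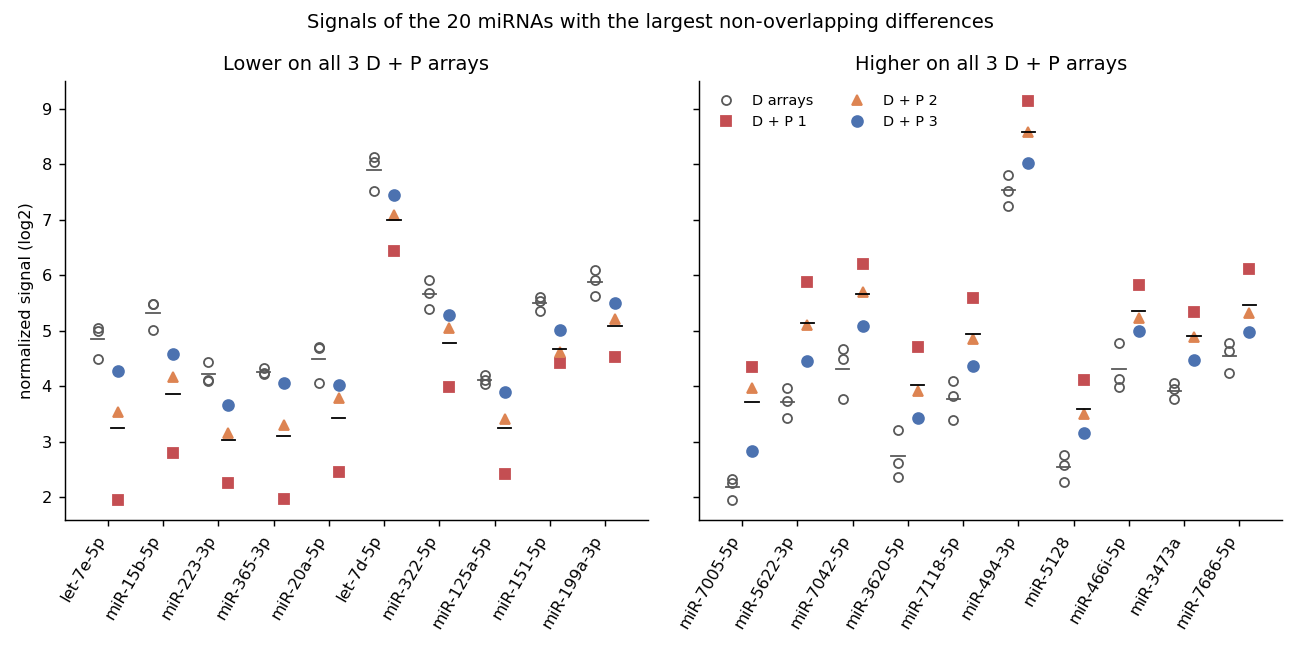
Normalized log2 signal (vertical axis) of the 10 miRNAs with the largest lower means (left) and the 10 with the largest higher means (right) among miRNAs whose groups do not overlap. Open circles are D arrays, filled symbols single D + P arrays and horizontal lines group means, and for each of the 20 miRNAs D + P 1 lies farthest from the D arrays and D + P 3 nearest.

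The miR-378 family was the family with the highest median. MiR-378a is made from an intron of the coactivator gene Ppargc1b, acts on mitochondrial metabolism and represses the IGF1 receptor in heart muscle cells. MiR-378c measured 5.52, 5.72 and 5.91 in D and 6.75, 6.46 and 6.29 in D + P, a difference of 0.78 without overlap (standard error 0.198, limma adjusted p = 0.086). MiR-378d measured 8.19, 8.29 and 8.55 in D and 9.35, 9.04 and 8.67 in D + P, a difference of 0.68 (standard error 0.223, limma adjusted p = 0.110). All 4 tested members were higher under each scaling examined, 3 without overlap, beside 35 of 138 (25.4%) over all miRNAs, and their median was 0.65. The members are close in sequence, so their signals may be shared.
In the miR-30 family, which is abundant in heart muscle cells and restrains connective tissue growth factor, 3 members were higher and 2 lower. MiR-30d-5p measured 6.99, 7.00 and 7.22 in D and 8.08, 7.52 and 7.32 in D + P, a difference of 0.57 without overlap (standard error 0.232, limma adjusted p = 0.115). MiR-30b-5p, with a difference of -0.39, and miR-30c-5p, with -0.26, overlapped. The 3 miR-29 miRNAs, which repress collagens, had differences of 0.05 to 0.21, and their direction depended on the scaling. A first group of miRNAs that had been clustered on these same arrays had 17 of 17 tested members lower (14 without overlap, beside 30.4% of all miRNAs) and a second group 11 of 11 higher (8 without overlap, beside 25.4%). With the control features as a covariate, 2 of the 17 were higher and 1 of the 11 lower. Without D + P 1 the medians of -0.45 and 0.57 became -0.29 and 0.33. Since the groups were formed on these arrays, their counts are not independent evidence of direction.

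The 2 arms of a hairpin come from the same precursor, and 8 hairpins had both arms among the 138 miRNAs. In 6 of the 8 the arms had opposite directions, and in each of these 6 the difference between the arms had the same sign on all 3 D + P arrays. For miR-378a the 5p arm measured 5.44, 5.40 and 5.32 in D and 4.73, 4.95 and 5.14 in D + P, and the 3p arm 7.58, 7.58 and 7.99 in D and 8.57, 8.19 and 7.79 in D + P. The difference between the changes of the arms (5p minus 3p) was -0.91. For miR-22, a regulator of heart growth, the 5p and 3p arms differed from D by -0.29 and 0.52, and for miR-652 by 0.69 and -0.44.
The miR-30a arms differed from D by 0.53 (5p) and -0.12 (3p), those of miR-30e by 0.40 and -0.17, and those of miR-133a by 0.18 and -0.26. The arms of miR-199a (-0.13 and -0.80) and of miR-126a (-0.41 and -0.22) were both lower. The sign of the difference between the arms was the same with quantile normalization, percentile scaling, no normalization and the authors' values for 7 of the 8 hairpins, with miR-126a as the exception. With the control features as a covariate, the sign also turned for miR-133a, to -0.03. Whether both arms had opposite signs depended more on the scaling: with percentile scaling both arms of miR-22, miR-30a, miR-30e and miR-652 were higher, and in the authors' values both arms of miR-22 were higher and both of miR-133a lower.

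Neighbouring hairpins gave a similar comparison. Within 10000 bases on the same strand, leaving out chromosome 18, there were 16 clusters with at least 2 tested hairpins, holding 33 miRNAs. All members were lower in 10 clusters, all higher in 3 and mixed in 3. A miRNA with several copies counts in each. Tested miRNAs without a matched position were left out, such as miR-23b-3p (-0.31), miR-30b-5p (-0.39) and miR-30d-5p (0.57). Those counted as all higher were the miR-29 clusters, whose direction depended on the scaling, and the cluster of miR-27b and miR-24-1, counted without miR-23b-3p. In the miR-23a/27a/24-2 cluster at chr8:84208563-84208896 (+ strand), miR-27a-3p and miR-24-2-5p stood on opposite sides of D with no overlap, as given above. MiR-23a-3p (-0.20) and miR-24-3p (0.10) overlapped. In the red cell cluster on chromosome 11, miR-144-3p measured 5.71, 6.02 and 5.91 in D and 6.37, 6.52 and 6.16 in D + P, a difference of 0.47 without overlap. MiR-451a, its neighbour, measured 9.15, 9.30 and 9.28 in D and 8.68, 9.13 and 9.13 in D + P, a difference of -0.26 without overlap. These red cell miRNAs therefore did not share a direction.

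Base composition went with the difference between the groups. A single RefSeq sequence was found for 116 of the 138 miRNAs and for 85 of the 101 detected on some arrays. The 116 are not independent replicates and share the same 6 arrays. Across the 116, the difference correlated with the percentage of G and C with r = 0.55 and rho = 0.59. By array, r was 0.61 on D + P 1, 0.51 on D + P 2 and 0.30 on D + P 3, so that it was closer on the arrays farther from D. For U alone r was -0.55, and for C alone 0.01, while length (r = -0.11) and mean signal in D (r = -0.14) were weakly related. The median G + C was 55.6% in miRNAs higher without overlap, 42.9% in those lower without overlap and 53.2% in the 50 whose groups overlapped.
The number in a miRNA name follows the order of its registration, and high numbers belong mostly to miRNAs found by deep sequencing. Of 38 miRNAs with a number of 1000 or more, 36 had a higher mean in D + P, with a median difference of 0.62, and 18 were higher without overlap, beside 25.4% of all miRNAs. By array the median was 1.20 on D + P 1, 0.53 on D + P 2 and 0.22 on D + P 3. Of 100 with a lower number, 29 were higher (17 without overlap) and 71 lower (41 without overlap), with a median of -0.26. The high-numbered miRNAs were richer in G + C (median 66.7% against 45.5%). Within them r with G + C was -0.17 (n = 34), and within the others it was 0.28 (n = 82). The part of base composition in the differences was not tested.

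**Figure D4:**
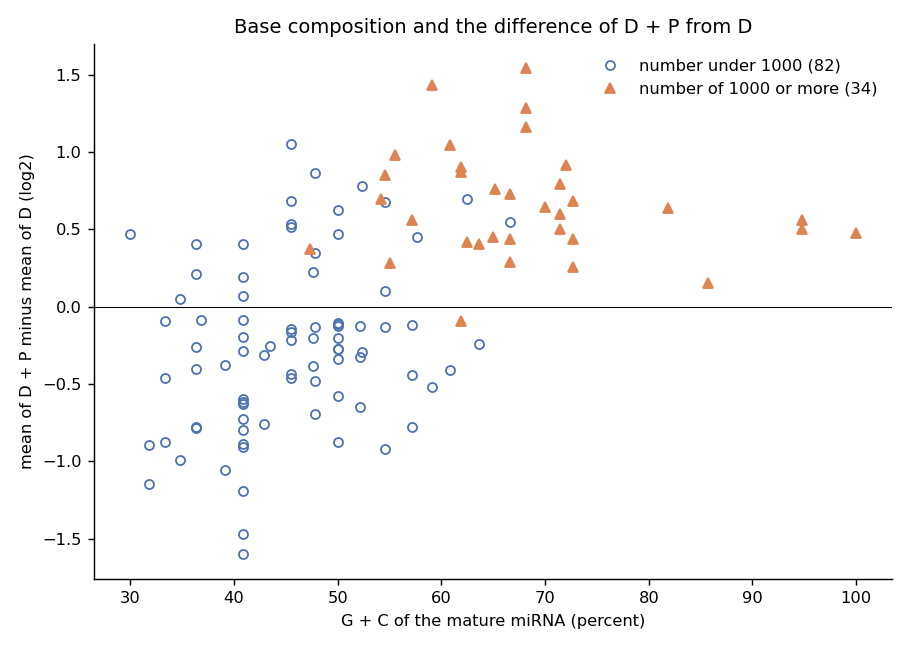
Percentage of G and C in the mature miRNA (horizontal axis) against the mean difference of D + P from D (log2, vertical axis) for the 116 miRNAs with a sequence. Orange triangles are miRNAs with a number of 1000 or more and open blue circles the others, and the triangles lie almost all above 0 and to the right.

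The stretch GAGAUGGCU was searched in all 1679 mature miRNAs of RefSeq, on the strand given, and was found in 4 (0.238%), all of them on these arrays. MiR-5128 measured 2.57, 2.76 and 2.27 in D and 4.10, 3.49 and 3.16 in D + P (difference 1.05, standard error 0.274, limma adjusted p = 0.086). MiR-3473a measured 3.95, 4.05 and 3.76 in D and 5.34, 4.88 and 4.47 in D + P (difference 0.98, standard error 0.247, limma adjusted p = 0.086). MiR-3473b, with a difference of 0.45, overlapped, and miR-3473e was not detected in D. A match of letters is a description of these sequences, which were compared after their values were seen.

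Detection differed for 101 miRNAs, of which 60 were detected on more D + P than D arrays, 31 on more D than D + P arrays and 10 on as many of each. On all 3 D + P arrays and no D array were 9 of 1881 miRNAs (0.478%), and 0 (0%) were on all 3 D arrays and no D + P array. With 3 arrays a group, an exact test of 1 miRNA cannot go below p = 0.1. The 9 were miR-6997-5p, miR-3081-5p, miR-3474, miR-5119, miR-7221-3p, miR-3473e, miR-8102, miR-3077-5p and miR-5107-5p. All have a number of 1000 or more, as did 45 of the 60 miRNAs detected on more D + P than D arrays. Of the 31 detected on more D than D + P arrays, 2 did. The share of such numbers over all 1881 miRNAs was not counted. MiR-6997-5p had scanner signals of 11.5, 10.4 and 8.88 on D + P 1, D + P 2 and D + P 3, and miR-5107-5p had 3.01, 4.19 and 4.25. The lowest signal called detected was 1.64, 1.41 and 1.93 on these arrays and 1.55 to 1.86 on the D arrays. Signals of the 9 miRNAs thus began at that limit, where miR-5119 stood on D + P 3 (1.93). On the C + P arrays of the same slide, 8 of the 9 were detected on all 3 arrays, and 7 of the 9 were detected on no C array. MiR-7221-3p was detected on all 3 C arrays and miR-6997-5p on 1 C array. Without D 1 the count was 25, as 16 of the 18 miRNAs detected on all D + P arrays and 1 D array were detected on D 1. Without D + P 3 it was 18, of which 16 were detected on D + P and 2 on D.
In the opposite direction, 19 miRNAs were detected on all 3 D arrays and 2 D + P arrays, and all 19 were missing on D + P 1. They included miR-98-5p, miR-10a-5p and miR-10b-5p of the Hox clusters, the hypoxia miRNA miR-210-3p, and miR-192-5p and miR-194-5p. Both miR-193 miRNAs were among them. MiR-193a-3p had scanner signals of 5.00, 4.35 and 4.65 in D, was not detected on D + P 1, and had 3.79 and 4.56 on D + P 2 and D + P 3. MiR-193b-3p had 10.5, 8.06 and 4.47 in D, and 4.09 and 4.31 on D + P 2 and D + P 3. An undetected miRNA has no level, so no fold is given for D + P 1.
MiR-365-3p, from the same clusters as the miR-193 miRNAs, was detected on all arrays. Its copy at chr11:79726467-79726488 (+ strand) lies on the same chromosome as miR-193a (chr11:79712009-79712030). It measured 4.23, 4.32 and 4.21 in D and 1.96, 3.30 and 4.06 in D + P on the normalized log2 scale (difference -1.15, standard error 0.475, limma adjusted p = 0.116). MiR-204-5p and miR-486b-3p were the 2 miRNAs detected on all D arrays and only on D + P 3.

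**Figure D5:**
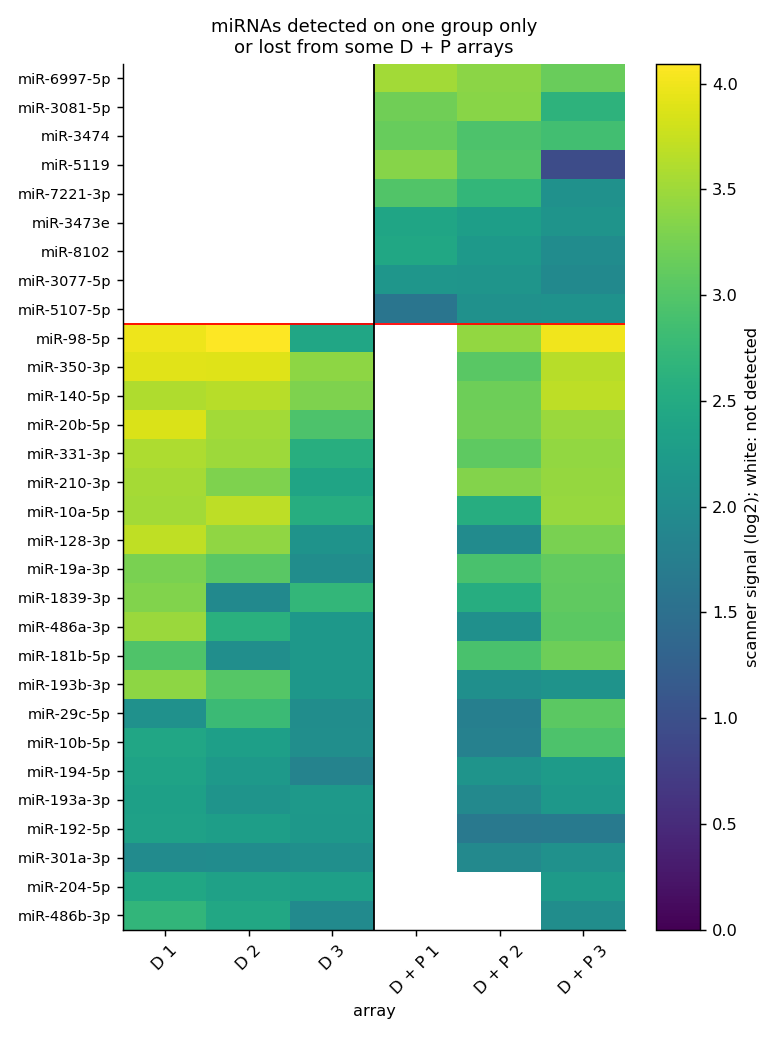
Scanner signal (log2, colour) on the 3 D and 3 D + P arrays for the 9 miRNAs detected on all D + P arrays and no D array (above the red line) and the 21 detected on all D arrays but not on all D + P arrays (below it). White cells are undetected, and below the line the whole column of D + P 1 is white.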

How the data were processed

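MiRNAs were profiled on 1-colour Agilent arrays by the authors, who deposited, for each array, the scanner software's intensity, its error and a detection flag for 1881 miRNAs without normalization between arrays, an undetected miRNA being written as 0.1. A table of normalized intensity was also deposited by the authors and used as an alternative. The records give 200 ng of labelled RNA and the methods a lower amount.

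MiRNAs detected on all 6 arrays were log2 transformed, normalized by cyclic loess (span 0.7, 3 iterations) and fitted with lmFit and eBayes (limma 3.58.1, R 4.3.3), with Benjamini-Hochberg adjustment and a threshold of 0.05. The miRNAs named are those measured by qRT-PCR, the 10 largest differences in each direction among non-overlapping miRNAs, and list members as examples. Also named are those farthest from the D range on each array and those with a full change of detection. Others, among them hairpin arms and some miRNAs with a partial change of detection, were named with their values known. The comparisons of hairpin arms, neighbouring hairpins, base composition and numbering were not among the planned results. Members and lists were chosen with earlier results of these data known. The alternatives were other normalizations, filters and fits, the authors' values, and each array left out. The fit was tested on simulated data in which both groups had the spread of the D arrays. The larger spread of the D + P arrays was not simulated. Of the listed miRNAs, miR-106a-5p and miR-486b-5p were not matched. The replicates are separate mice, and their number limits the precision.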

Additional observations from a re-analysis of the deposited data

Results flagged for a closer look

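The pargyline difference was set against the same difference in non-diabetic hearts (C + P minus C) by an interaction term in the limma fit over 12 arrays. Both differences run between the same slides and share no array. It passed the threshold for 90 of 128 miRNAs (70.3%), 45 in each direction, and it is given here because the difference itself was tested. All C + P arrays were brighter than all C arrays, whereas each D + P array was dimmer than the D arrays or within their range. The summed signal was 27107 to 35028 in C and 57895 to 89040 in C + P, whereas the D arrays summed to 48104 to 61254 and the D + P arrays to 39661 to 58631. The mean log2 signal of the control features was 10.29 to 10.56 in C and 11.03 to 11.48 in C + P, against 11.07 to 11.21 on the D arrays and 10.29 to 11.10 on the D + P arrays. The part of brightness in the interaction was not tested. Across these 128 miRNAs, 27 had the same sign in both settings.

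Among named miRNAs with a higher mean in D + P, the interaction was 3.02 for miR-7005-5p (1.41 in diabetic and -1.60 in non-diabetic hearts), 2.95 for miR-5622-3p, 1.74 for miR-7042-5p and 2.02 for miR-3620-5p. It was 1.54 for miR-7118-5p and for miR-7686-5p, 1.48 for miR-494-3p, 1.11 for miR-5128, 2.11 for miR-466i-5p and 0.729 for miR-3473a. MiR-3473a was higher with pargyline in both settings (0.90 and 0.17), whereas the other 9 were lower with pargyline in non-diabetic hearts.

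Among those with a lower mean, it was -2.88 for miR-15b-5p (-1.59 and 1.29), -2.70 for miR-223-3p, -1.59 for let-7d-5p, -1.70 for miR-322-5p and -2.0 for miR-125a-5p. It was -0.967 for miR-151-5p, -1.66 for miR-199a-3p, -0.636 for miR-152-3p, -1.11 for miR-27a-3p (-0.34 and 0.76) and -1.82 for let-7f-5p. MiR-133a-3p and miR-185-5p, at -0.16 and -0.08, had limma adjusted p-values of 0.517 and 0.739.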

How the results depend on the processing

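By limma, 0 miRNAs passed with quantile normalization (39 at an unadjusted p under 0.05), scaling to the 75th percentile (50), no normalization (26), no filter on detection (52 of 1881), a pseudocount of 16 (60), the authors' normalized values (44), array quality weights (60) and an intensity trend (57). The methods' t-test gave 18 at an unadjusted p under 0.05 and 0 after Holm or Benjamini-Hochberg adjustment. Counts moved to 69 of 128 in the fit over 12 arrays and to 5 of 196 with miRNAs detected on all arrays of 1 group. The 5 were miR-192-5p, miR-193b-3p, miR-486b-3p, miR-671-5p and miR-6997-5p. Each was undetected on at least 1 of the 6 arrays, where a filled-in value stood in for a measured level. MiR-6997-5p was detected on 0 D and 3 D + P arrays, and miR-486b-3p on 3 D arrays and 1 D + P array. These 5 calls therefore partly restate detection and cannot show a change of level by themselves. With a replicate block, 6 passed, all higher. Samples with the same number were not treated as pairs in the main fit. Their deviations from the group means correlated with r of 0.05, 0.32 and -0.37. With so few arrays in a group, these values cannot show whether the numbers pair the samples. With 1 array left out, 0 to 69 passed and 79 to 110 did not overlap, and the latter were 38 without normalization. MiRNAs detected on all arrays of 1 group and none of the other numbered 9 to 25 with 1 array left out, and 45 as at least 2 arrays against at most 1. The median SD of D + P was 0.371 to 0.463 with the other normalizations. The largest differences and the qRT-PCR miRNAs held 25 that were detected on all 6 arrays. Of these, 1 turned direction in 1 setting, miR-133a-3p at 0.00052 with the control features as a covariate. Other miRNAs, named as list members or hairpin arms, turned direction as well, among them miR-99b-5p, miR-497a-5p and miR-93-5p with percentile scaling. Where a setting passed a named miRNA, the cause was not tested. Signals near the detection limit have the least support.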
